A study of Homo sapiens with 6 samples.

Results

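The pre-B cell receptor and the enzymes and adaptor next to it were examined as 10 genes, chosen by name and matched by symbol to 1 Ensembl identifier each. All 10 were among the 57905 genes of the deposited count table, and all 10 were among the 16622 genes that passed the filter on low counts. The RNA-SEQ libraries came from Nalm6, a human cell line of B-cell precursor acute lymphocytic leukemia, with 3 libraries from cells given DMSO and 3 from cells given THZ1 at 500 nM for 24 h. THZ1 is a covalent inhibitor of CDK7, a kinase that phosphorylates both cell cycle kinases and RNA polymerase II. DMSO, the solvent, was the only control, and 1 line at 1 dose and 1 time was sequenced. The labels do not say whether replicates were separate cultures, so p-values measure the spread between these libraries, which may be technical.

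The pre-B cell receptor is made before a B cell precursor has a light chain of its own. A mu heavy chain (IGHM) pairs with a surrogate light chain, built from VPREB1 and IGLL1 (lambda 5), and the complex signals through the CD79A and CD79B heterodimer, whose cytoplasmic tails carry tyrosine activation motifs. LYN phosphorylates these motifs, SYK binds them and is activated, SYK phosphorylates the adaptor BLNK, and BLNK brings BTK to its substrate phospholipase C gamma, while the phosphatase PTPN6 (SHP-1) damps the cascade. In many B cell precursor leukemias, surrogate light chain genes are among the markers of the stage at which the cells are arrested.

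The start-site regions of CD79A, which rose, and of VPREB1, IGLL1 and VPREB3, which fell, are shown first because these genes sit in 1 receptor pathway and moved in opposite directions. The sequences are RefSeq promoters of GRCh38.p14, each running from 250 bases before to 50 after the annotated start, 5′ to 3′ on the gene's strand. Of the 10 members, 8 were searched. CD79B had no entry, and LYN was left out of the search. On GRCh37, the build of the deposited files, exact and single matches lay at chr19:42381099-42381398 on the plus strand for CD79A, chr22:23922428-23922727 on the minus strand for IGLL1 and chr22:24096563-24096862 on the minus strand for VPREB3. The VPREB1 sequence had no exact match there and is placed on GRCh38.p14 at chr22:22244536-22244835, plus strand. Capitals mark the motifs searched on both strands, which were the E-box CANNTG, the paired half-site CCCNNGGG of EBF factors, the octamer ATGCAAAT, TATAAA and the ETS core AGGAAGT.
CD79A: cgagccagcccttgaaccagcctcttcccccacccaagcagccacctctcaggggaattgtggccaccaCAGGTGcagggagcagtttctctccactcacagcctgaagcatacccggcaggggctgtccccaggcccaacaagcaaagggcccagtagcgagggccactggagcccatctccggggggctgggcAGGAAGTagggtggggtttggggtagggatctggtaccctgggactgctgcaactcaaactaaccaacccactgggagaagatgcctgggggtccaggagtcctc
VPREB1: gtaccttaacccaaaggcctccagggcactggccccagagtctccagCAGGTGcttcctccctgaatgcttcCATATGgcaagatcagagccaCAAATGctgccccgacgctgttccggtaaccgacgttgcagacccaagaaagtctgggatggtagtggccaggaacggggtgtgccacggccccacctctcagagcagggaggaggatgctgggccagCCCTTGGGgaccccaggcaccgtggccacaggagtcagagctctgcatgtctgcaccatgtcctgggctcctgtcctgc
IGLL1: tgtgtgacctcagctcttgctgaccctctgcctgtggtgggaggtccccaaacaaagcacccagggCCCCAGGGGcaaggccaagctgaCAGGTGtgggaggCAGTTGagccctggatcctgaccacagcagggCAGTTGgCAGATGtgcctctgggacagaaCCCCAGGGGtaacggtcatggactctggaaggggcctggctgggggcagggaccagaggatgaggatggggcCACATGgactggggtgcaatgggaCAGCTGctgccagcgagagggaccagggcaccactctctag
VPREB3: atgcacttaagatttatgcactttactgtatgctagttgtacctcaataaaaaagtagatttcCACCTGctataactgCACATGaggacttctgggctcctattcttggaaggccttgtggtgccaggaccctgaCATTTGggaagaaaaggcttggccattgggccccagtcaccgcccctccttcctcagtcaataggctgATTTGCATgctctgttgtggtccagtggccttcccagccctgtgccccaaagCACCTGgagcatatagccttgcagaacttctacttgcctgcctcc

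The CD79A sequence held 1 E-box and 1 ETS core, the latter at -55 to -49 from the start. The VPREB1 sequence held 3 E-boxes and 1 EBF half-site pair. The IGLL1 sequence held 6 E-boxes and 4 EBF matches, which were overlapping pairs at -184 to -176 and at -87 to -79. The VPREB3 sequence held 4 E-boxes and 1 octamer, read on the opposite strand at -47 to -40. TATAAA was found in none of these windows. Among the other members searched, the ETS core also occurred in windows of SYK, BLNK, PTPN6 and BTK, which all fell. The EBF pair also occurred in windows of PTPN6 and BTK. Among 35116 RefSeq promoters of the same length, 68.7% held an E-box, 19.1% the EBF pair, 1.77% the octamer, 11.5% TATAAA and 8.24% the ETS core. The matches describe letters, and no binding was measured in these libraries.

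With THZ1, 9 of the 10 members fell and 1, CD79A, rose, and in all 10 the values of the 3 THZ1 libraries did not overlap those of the 3 DMSO libraries. Values are CPM, read counts divided by a library size that TMM has rescaled, and fold changes compare THZ1 with DMSO. The test was the quasi-likelihood test of edgeR, with p-values adjusted by the Benjamini-Hochberg procedure across every gene in the fit and a threshold of 0.05. Across all 16622 genes tested, 41.1% were lower and 43.5% were higher by the same test. All THZ1 libraries lay below all DMSO libraries for 41.3% of genes and above them for 43.4%. The 9 lower members are therefore to be read against a background in which most genes moved. A fall of at least 1.5 in log2 was met by 6 members (IGLL1, VPREB3, BLNK, VPREB1, SYK and LYN), against 12.9% of all genes. A rise of that size was met by 0 members, against 24.6% of all genes, although CD79A reached it, at 1.52, when upper quartile factors replaced TMM. The members' median log2 fold change was -1.66, and that of all genes tested was 0.03. In bulk RNA, fewer cells that express a gene and less of its RNA per cell cannot be told apart.

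**Figure D1:**
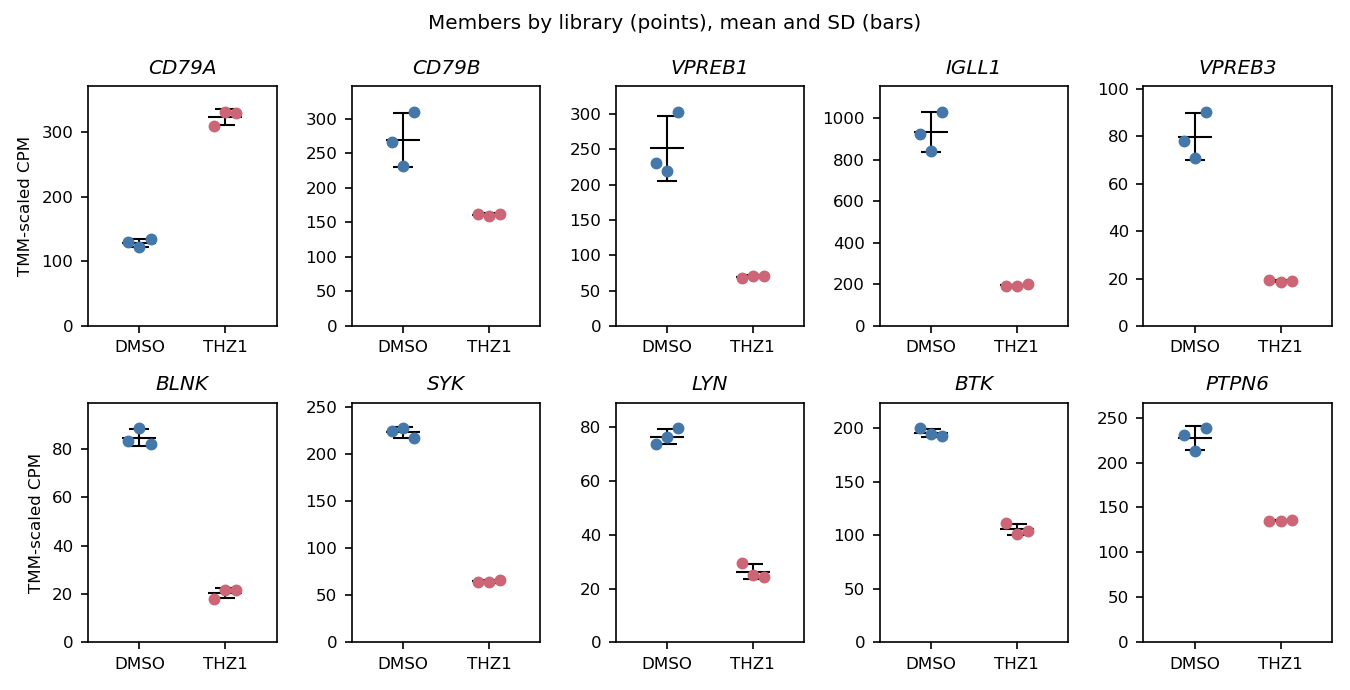
TMM-scaled CPM (y axis, from 0) of each member in the 3 DMSO (blue) and 3 THZ1 (red) libraries, with 1 point per library and the mean and SD as black bars. CD79A lies higher with THZ1, at 309.7 to 331 against 122 to 134 CPM, and the other 9 lie lower.

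VPREB1, IGLL1 and the related VPREB3, grouped here as surrogate light chain genes, all fell by more than 1.5 in log2. IGLL1, the lambda 5 chain, was counted at 927, 841 and 1032 CPM in the DMSO libraries and at 191, 194 and 199.7 CPM in the THZ1 libraries. Every THZ1 value was below the lowest DMSO value, and the 3 THZ1 values lay close together. Its log2 fold change was -2.26 ± 0.08 (SE; adjusted p = 1.58e-22, edgeR quasi-likelihood test), the lowest of the 10 members, and its level with DMSO was 4.79 times that with THZ1. Of all log2 fold changes in the fit, 4.67% were below that of IGLL1.

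VPREB1, the V-like chain of the surrogate light chain, stood at 230.4, 219 and 303 CPM with DMSO and at 67.3, 71.0 and 70.9 CPM with THZ1. The third DMSO library was the highest, and the THZ1 libraries again differed little. The log2 fold change was -1.85 ± 0.09. VPREB3, a relative of VPREB1 known to bind mu heavy chains inside the cell, stood at 78.2, 70.9 and 90.4 CPM with DMSO and at 19.5, 18.7 and 19.0 CPM with THZ1. It fell by 2.07 ± 0.10 on the log2 scale, and its groups were as clearly apart as those of IGLL1 and VPREB1. Summed, the 3 genes reached 1264 ± 149 CPM (SD, n = 3) with DMSO and 284 ± 6.05 CPM after THZ1.

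All 3 surrogate light chain genes lie on chromosome 22. On GRCh37, VPREB1 spans chr22:22599192-22599927 (plus strand), IGLL1 chr22:23915312-23922489 (minus strand) and VPREB3 chr22:24094930-24096612 (minus strand). IGLL1 is overlapped on the opposite strand by the lncRNA gene ENSG00000224277, which had 4040, 3481 and 4336 counts with DMSO and 576, 572 and 615 with THZ1. That gene's log2 fold change was -2.05. Since no strand setting of the counting is given, how reads lying on both IGLL1 and this gene were counted, or left out, is not known. A lncRNA on the IGLL1 strand 578 bp away, ENSG00000272733, stood at 33.2 CPM with DMSO and at 30.97 after THZ1, and its log2 fold change of -0.10 did not pass the test (edgeR, adjusted p = 0.387). Near VPREB3, C22orf15, MMP11 and ZNF70 lay at log2 fold changes of 3.59, 1.999 and 1.59 and were called higher. CHCHD10, at 0.06, was not called.

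The heterodimer partners CD79A and CD79B moved in opposite directions. CD79A (chr19:42381349-42385439, plus strand) stood at 130.4, 122 and 134 CPM in the DMSO libraries and at 309.7, 331 and 329 CPM in the THZ1 libraries. The lowest THZ1 value was above the highest DMSO value, and the level with THZ1 was 2.51 times that with DMSO. Its log2 fold change was 1.33 ± 0.07 (adjusted p = 1.12e-17, edgeR quasi-likelihood test), and 73.6% of all log2 fold changes were below it.

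CD79B (chr17:62006098-62009696, minus strand) stood at 267, 232 and 311 CPM with DMSO and at 162, 159.7 and 163 CPM with THZ1. The DMSO libraries were widely spread, but none came down to the THZ1 values. Its log2 fold change was -0.74 ± 0.08 (adjusted p = 5.66e-10, edgeR quasi-likelihood test), the highest adjusted p of the 10 members. Within a library, the count of CD79A divided by that of CD79B was 0.489, 0.526 and 0.432 with DMSO and 1.91, 2.07 and 2.02 with THZ1. The excess of CD79B reads over CD79A reads in each DMSO library was thus an excess of CD79A reads in each THZ1 library. This ratio holds no scaling factor, and it was 4.16 times as high with THZ1.

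The summed CPM of CD79A and CD79B was 399 ± 45.2 with DMSO and 485 ± 11.6 after THZ1 (SD, n = 3), and its ranges of 354 to 445 and 471 to 492 did not overlap. As a share of all counts, without TMM, the sum overlapped between groups, at 0.0393% to 0.0472% with DMSO and 0.0431% to 0.0450% with THZ1. The genes next to CD79A, ARHGEF1 and RPS19, were higher too, with log2 fold changes of 0.48 and 0.95. Near CD79B, the growth hormone gene GH1 had 1, 1 and 2 counts with DMSO and 261, 222 and 234 with THZ1, and SCN4A had a log2 fold change of 0.94. GH1 was named after its values were seen.

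The kinases and the adaptor all fell, by amounts that differed. SYK, the kinase that docks on the phosphorylated CD79 tails, stood at 225, 227 and 217 CPM with DMSO and at 63.9, 64.0 and 66.4 CPM with THZ1. Both groups were tight and far apart, and the log2 fold change was -1.78 ± 0.07. BLNK, the adaptor that SYK phosphorylates, stood at 83.4, 88.7 and 82.0 CPM with DMSO and at 17.9, 21.7 and 21.8 CPM with THZ1. Its log2 fold change was -2.05 ± 0.10, close to that of VPREB3. BLNK overlaps ZNF518A on the opposite strand, whose log2 fold change was -1.18. How reads lying on both of these genes were counted, or left out, is not known.

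LYN, the SRC family kinase that starts the cascade, stood at 73.7, 76.1 and 79.5 CPM with DMSO and at 29.3, 25.2 and 24.3 CPM with THZ1. The groups were well apart, and the log2 fold change of -1.54 ± 0.09 was the member value nearest to the threshold of 1.5. Over the alternative settings it ran from -1.79 to -1.34, so whether LYN passes it depends on the setting. BTK, the TEC family kinase recruited by BLNK, stood at 199.8, 195 and 192 CPM with DMSO and at 111, 101 and 104 CPM with THZ1. BTK fell less than SYK and LYN, with a log2 fold change of -0.89 ± 0.07.

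PTPN6, the phosphatase of the set, stood at 230.3, 213 and 238 CPM with DMSO and at 135, 135 and 136 CPM with THZ1. Its log2 fold change of -0.75 ± 0.07 was within the error of that of CD79B. The 3 kinases together stood at 495 ± 5.63 CPM with DMSO and 196 ± 7.42 CPM with THZ1. On GRCh37, SYK lies at chr9:93564069-93660831 (plus strand), BLNK at chr10:97948927-98031344 (minus strand), LYN at chr8:56792394-56926728 (plus strand), BTK at chrX:100604326-100645784 (minus strand) and PTPN6 at chr12:7055631-7070479 (plus strand). The Ensembl identifiers are ENSG00000105369 for CD79A, ENSG00000007312 for CD79B, ENSG00000169575 for VPREB1, ENSG00000128322 for IGLL1, ENSG00000128218 for VPREB3, ENSG00000095585 for BLNK, ENSG00000165025 for SYK, ENSG00000254087 for LYN, ENSG00000010671 for BTK and ENSG00000111679 for PTPN6. Gene spans ran from 736 bp for VPREB1 to 134335 bp for LYN.

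**Figure D2:**
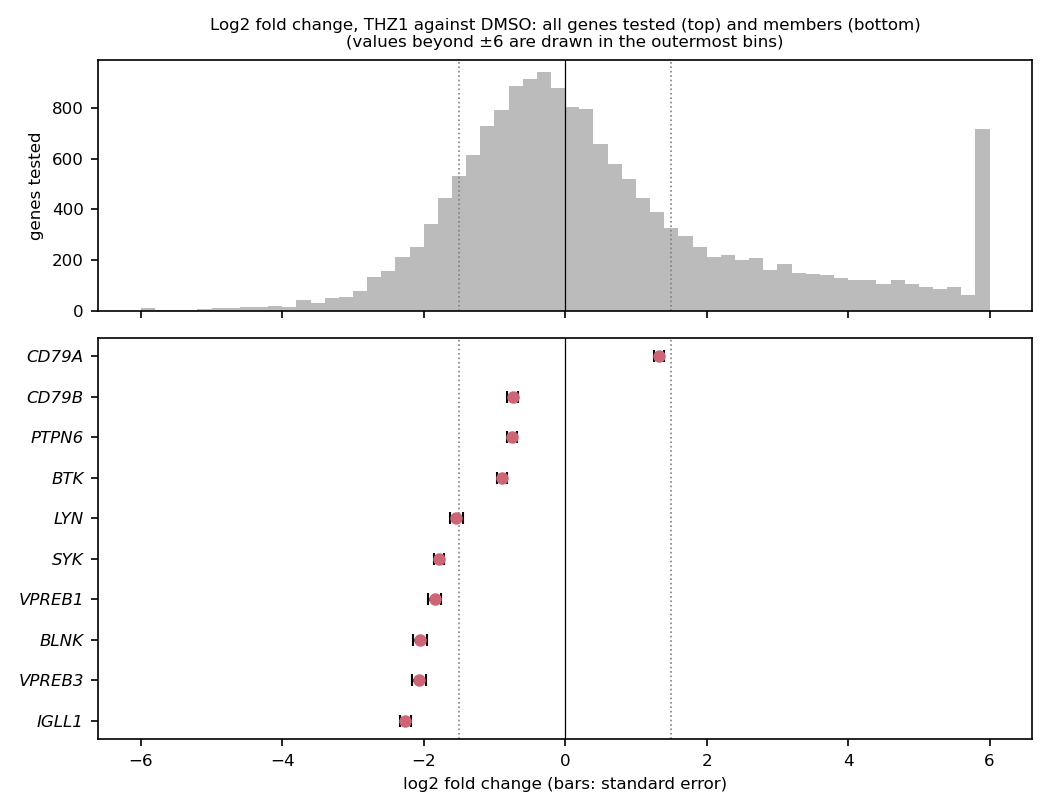
Log2 fold change, THZ1 against DMSO (x axis), as a histogram of all 16622 genes tested (top, y axis in genes) and for each member with its SE (bottom). Dotted lines mark 1.5 in either direction. CD79A at 1.33 is the only member to the right of 0, and IGLL1 at -2.26 lies farthest to the left.

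Ratios of 2 members within a library were compared for 10 pairs, by a two-sided exact permutation test over the 6 libraries, which cannot give a p below 0.1. In 8 of the 10 pairs the DMSO and THZ1 ratios did not overlap (exact p = 0.1, Benjamini-Hochberg adjusted over the pairs 0.125), and no pair can pass 0.05 in this design. Among single genes tested, 41.3% lay wholly below and 43.4% wholly above with THZ1. The share of all gene pairs without overlap was not computed, so this count cannot be called particular to the members. The log2 ratio of CD79A to CD79B rose from -1.06 ± 0.14 to 1.00 ± 0.06 (SD, n = 3). That shift of 2.06 was the widest of the 10.

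Among the surrogate light chain genes, VPREB1 lost less than IGLL1. The count of VPREB1 divided by that of IGLL1 was 0.249, 0.261 and 0.294 with DMSO and 0.353, 0.366 and 0.355 with THZ1. The log2 ratio moved by 0.42 ± 0.07 (SE). The ratios of VPREB1 and of IGLL1 to VPREB3 moved by 0.22 and -0.20.

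Among the enzymes, BTK gained on SYK. Their count ratio was 0.889, 0.857 and 0.889 with DMSO and 1.74, 1.58 and 1.56 with THZ1, a log2 difference of 0.89 ± 0.05. SYK lost against PTPN6, with a count ratio of 0.976, 1.07 and 0.909 with DMSO and 0.474, 0.474 and 0.489 with THZ1. The log2 ratio of LYN to PTPN6 moved by -0.80 ± 0.10. The ratios of LYN to SYK (log2 difference 0.24 ± 0.11) and of BTK to PTPN6 (-0.15 ± 0.07) overlapped between the groups, with an exact p of 0.2 for each.

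**Figure D3:**
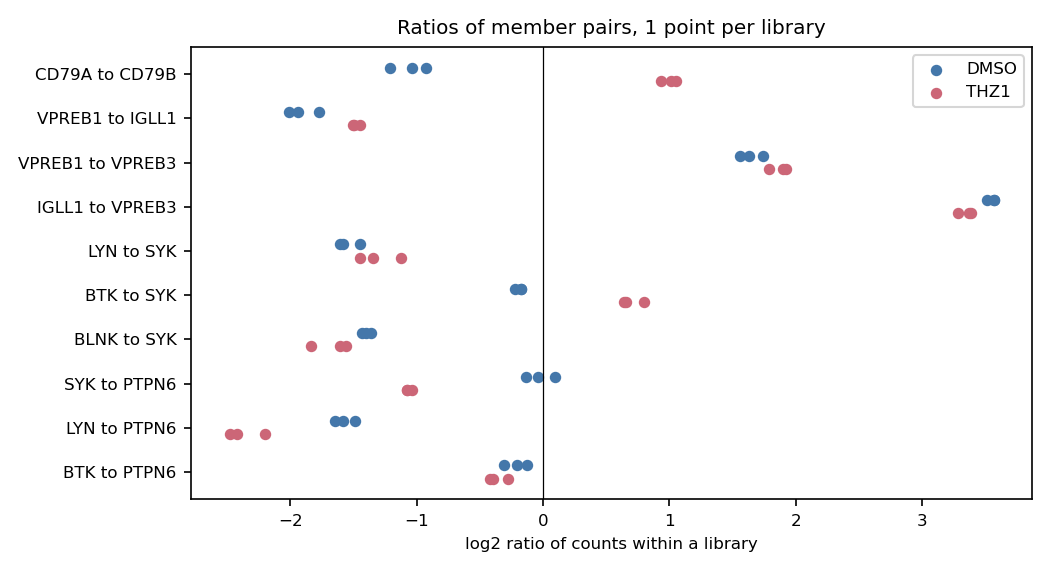
Log2 ratio of the counts of 2 members within a library (x axis) for the 10 pairs (rows), with 1 point per library, DMSO in blue and THZ1 in red. The CD79A to CD79B ratio crosses 0, from -1.06 to 1.00 on average, while LYN to SYK and BTK to PTPN6 overlap.

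Levels of different genes were compared only per length, on the deposited FPKM values. Sorted FPKM values are nearly identical within a treatment, so these SDs and ranges may understate the spread between libraries. With DMSO, IGLL1 was the highest member at 3722 ± 116 FPKM (SD, n = 3), followed by VPREB1 at 1135 ± 134, VPREB3 at 414 ± 20.8, CD79B at 383 ± 30.8 and CD79A at 254 ± 4.25. PTPN6 at 130 ± 2.98, SYK at 122 ± 9.43 and BTK at 122 ± 7.54 came next, and BLNK at 65.4 ± 4.59 and LYN at 34.4 ± 1.05 were the lowest. The ranges of VPREB3 and CD79B overlapped, as did those of PTPN6 with SYK and of SYK with BTK. In the 16730 genes of that table, IGLL1 stood at the 99.9th percentile of mean FPKM and LYN at the 76.9th.

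With THZ1, IGLL1 at 526 ± 21.9 FPKM and CD79A at 523 ± 30.1 led, and their ranges overlapped. VPREB1 followed at 259 ± 10.99, CD79B at 187 ± 0.507 and VPREB3 at 85.2 ± 1.95. PTPN6 stood at 69.2 ± 0.334, BTK at 59.1 ± 2.80, SYK at 32.4 ± 0.999, BLNK at 13.9 ± 1.68 and LYN at 10.1 ± 1.20, with no overlap between neighbours after the first pair. CD79A moved from the fifth place to the second. Ranked by CPM per kilobase of exon from the counts, CD79A was the first with THZ1, and BLNK fell below LYN in both groups.

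The make-up of the set changed with its total. Of the summed FPKM of the 10 members, IGLL1 made up 58.3% ± 2.14 with DMSO and 29.8% ± 0.540 with THZ1, and CD79A 3.97% ± 0.0887 and 29.6% ± 0.871. CD79B took 5.996% with DMSO and 10.6% with THZ1, and VPREB1 17.8% and 14.7%. All 10 members together held 0.268% ± 0.0156 of all counts with DMSO and 0.102% ± 0.00115 with THZ1.

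**Figure D4:**
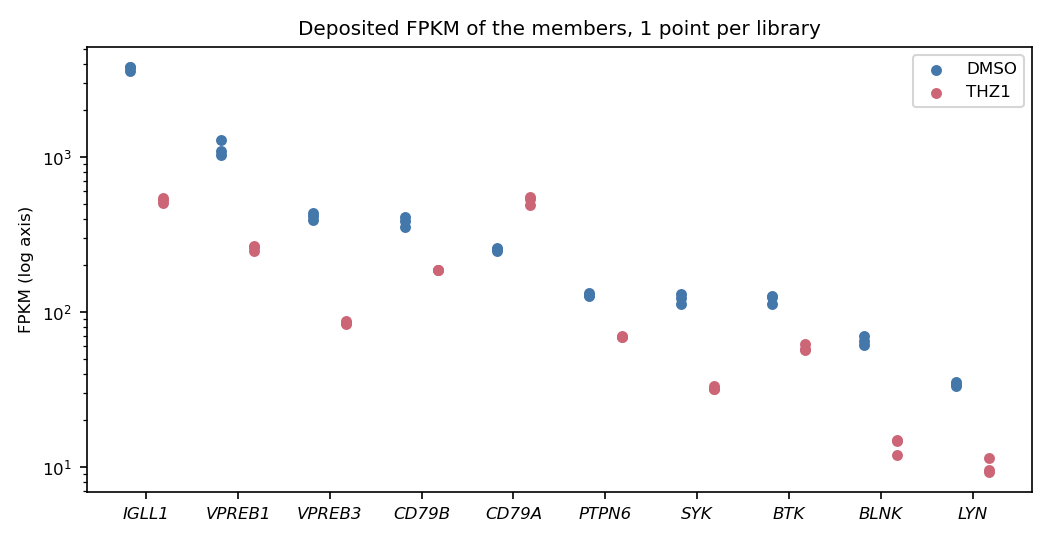
Deposited FPKM of each member (y axis, log scale) with 1 point per library, DMSO in blue and THZ1 in red, ordered by the DMSO mean. IGLL1 leads with DMSO at a mean of 3722 FPKM, and IGLL1 and CD79A overlap with THZ1.

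Of the immunoglobulin chain genes listed, IGHM, whose mu chain is part of the receptor, and 3 others were tested. IGHM, the mu heavy chain, stood at 1463, 1304 and 1591 CPM with DMSO and at 2516, 2433 and 2475 CPM with THZ1. The groups did not overlap, and the log2 fold change was 0.77 ± 0.07. In the FPKM table the same gene moved by 0.10 and was not called (limma, adjusted p = 0.144), so its rise rests on the counts and their scaling. IGLC3 and IGLC7, lambda constant genes, were lower by edgeR with log2 fold changes of -1.95 and -0.87, and IGHD, the delta constant gene, with -0.81. IGKC, IGLC1, IGLC2 and IGLL5 had 0 counts in all 6 libraries. Lambda constant genes are near-identical copies of each other, and how the counting assigned or left out their reads is not known, so these values are uncertain. Chosen after their values were seen, the count of IGLL1 divided by that of IGHM was 0.634, 0.645 and 0.649 with DMSO and 0.0758, 0.0798 and 0.0807 with THZ1.

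The other genes of the pathway were taken from 6 lists, which held 104 genes. Of the 83 that were tested, 54 were lower, 18 were higher and 11 were not called by edgeR, with a median log2 fold change of -0.82. The corresponding shares of all genes tested are the 41.1% and 43.5% given above. Every list had a median below 0, from -0.53 for transcription factors of the pre-B stage to -1.07 for the other phosphatases and negative regulators.

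Of the other SRC, TEC and SYK family kinases, 6 of 10 tested were lower and 2 were higher, with a median of -0.83. ZAP70, the relative of SYK, and BLK, a B cell relative of LYN, were lower with log2 fold changes of -1.47 and -1.43, and FYN with -0.95 (-1.55 by limma on FPKM + 0.1). CSK, which phosphorylates the inhibitory tail tyrosine of SRC family kinases, fell by 1.30 on the log2 scale. SRC itself was higher on the counts, at 0.91, but not by limma on the FPKM table (0.17 to 0.19, adjusted p = 0.385 to 0.397). FGR, which was also called higher, had a mean of 0.0281 CPM with DMSO and 2.48 CPM after THZ1, and its DMSO level is at the limit of counting.

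Of the co-receptors and inhibitory receptors, 4 of 7 tested were lower and 1 was higher. CD22, an inhibitory receptor that recruits PTPN6, stood at 118 ± 5.83 CPM with DMSO and 20.03 ± 1.98 with THZ1 (CPM, mean ± SD, n = 3), a log2 fold change of -2.56. FCRLA had a log2 fold change of -2.59, and LAIR1, another inhibitory receptor, one of -1.08. CD81, a tetraspanin of the B cell surface, was higher by 0.36, and missed the threshold when library sizes alone were used (0.12, adjusted p = 0.0926).

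Of the other phosphatases and negative regulators, 11 of 15 tested were lower and 3 were higher. UBASH3B, a phosphatase that acts on SYK family kinases, had a log2 fold change of -2.60, and PAG1, the membrane anchor of CSK, one of -1.63. INPP5D (SHIP1), the lipid phosphatase that opposes PI3K signalling, fell by 0.94. LAPTM5, a lysosomal protein that lowers antigen receptor levels, was higher by 1.15, and the adaptor SLA2 by 1.68. PTPRC (CD45), which removes the inhibitory phosphate from SRC family kinases, stood at 1.19 ± 0.0469 CPM with DMSO and 0.134 ± 0.232 CPM after THZ1, so its level was low in both groups.

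Of the downstream adaptors and effectors, 20 of 29 tested were lower, 5 were higher and 4 were not called. PLCG2, the phospholipase that BTK activates, fell by 0.93, and PIK3CD, the catalytic PI3K subunit of lymphocytes, by 1.38. PPP3CB, a catalytic subunit of calcineurin, had the lowest log2 fold change, at -2.89 (-3.62 by limma on FPKM + 0.1), and ITPR3, a calcium release channel, had -1.70. The adaptors GRB2 and SHC1 were higher, with log2 fold changes of 0.97 and 1.63.

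Of the 18 transcription factors of the pre-B stage, 10 were lower and 6 were higher. PAX5, the B lineage factor that binds CD79A and other receptor genes, stood at 541 ± 58.7 CPM with DMSO and 137 ± 4.17 with THZ1, a log2 fold change of -1.98. EBF1 and TCF3, which act with PAX5 at surrogate light chain and CD79 promoters, fell by 0.51 and 0.54. ERG had the lowest log2 fold change, at -2.32. IRF4 and IRF8, known to end surrogate light chain expression as precursors mature, were higher with log2 fold changes of 1.86 and 1.82. On the FPKM table, the value for IRF8 was 0.96 by limma with 1 added.

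**Figure D5:**
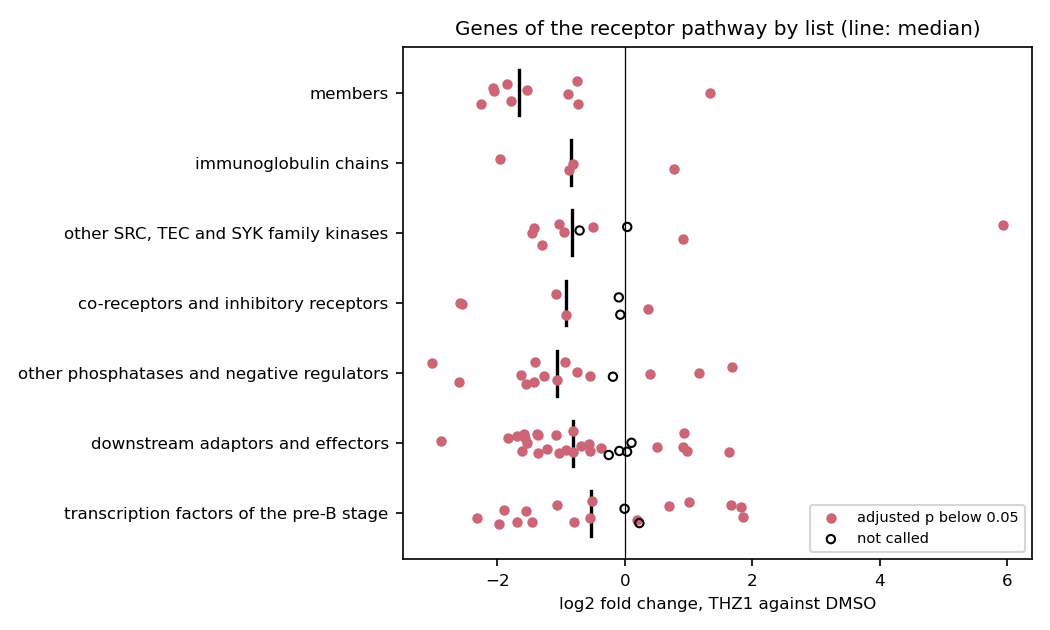
Log2 fold change, THZ1 against DMSO (x axis), of the members and of the tested genes in each pathway list (rows), with filled points for adjusted p below 0.05, open points for genes not called and a line at each median. The members' median is -1.66, and those of the lists run from -1.07 to -0.53. The FGR point, farthest to the right, has a DMSO level at the limit of counting.

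Library totals were 11015480 to 11164840 counts with DMSO and 7876402 to 8314306 with THZ1, and the lowest member count in any library was 135, for VPREB3. Of the B cell precursor markers, all 7 in the table were tested, with a summed level of 2375 to 2603 CPM with DMSO and 1441 to 1476 CPM after THZ1, and 5 of the 7 were lower. DNTT, the terminal transferase of precursors, fell by 2.14 and RAG2 by 0.67. T cell and NK cell markers summed to at most 0.969 CPM in any library. Summed myeloid markers ran from 3.97 to 4.67 CPM with DMSO and from 17.3 to 18.4 after THZ1, erythroid markers from 0.164 to 0.253 and from 2.94 to 3.81, and mature B and plasma cell markers from 35.3 to 42.1 and from 72.7 to 82.6. Their part in the members' changes was not tested.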

How the data were processed

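RNA-SEQ of Nalm6 cells gave 6 libraries, grouped by the labelled treatment. The raw counts deposited by the authors were made, per the labels and methods, by filtering reads (cutadapt), mapping to GRCh37 (STAR) and counting per gene (HTSeq). A second table deposited by the authors holds RSEM expression values on a log2 scale, read as log2(FPKM + 1) although the design had assumed linear FPKM, so values were returned to FPKM before other pseudocounts were added. Its sorted values are nearly identical within a treatment, so its SDs and ranges may be too small. The limma p-values from that table are uncertain for the same reason. That table also holds the authors' fold changes, p-values and FDR, which were not used. Strand setting and annotation are not given in the sources used here.

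Counts were tested with edgeR 4.0.16 in R 4.3.3 (TMM, filterByExpr with a minimum count of 10 and a total of 15, quasi-likelihood test, Benjamini-Hochberg over 16622 genes), treatment being the only term. Alternatives were other normalization factors, DESeq2 1.42.0, other filters, limma 3.58.1 on FPKM, the replicate number as a term and each library left out. On counts simulated for this contrast (16092 genes run), edgeR called 89 of 99 genes changed by 1 in log2 and 93 of 95 changed by 2, with 7 false calls. Few genes were changed in that simulation, in both directions alike, whereas 41.1% were lower and 43.5% higher in the real contrast. Its false calls therefore do not measure the error of the real test. Ratios used log2 of counts with 0.5 added. Coordinates are from GENCODE on GRCh37, and promoters from RefSeq. Replicates of one treatment differed by more than sampling noise (chi-square per gene 1.78 to 9.19). Members and lists were chosen with earlier results of these data known. Named genes were the members, IGHM and, of each other list, the 2 highest and the 2 lowest among called genes whose treatments did not overlap and whose mean reached 10 CPM. Genes named outside that rule (CSK, FGR, INPP5D, PTPRC, PLCG2, PIK3CD, EBF1, TCF3, DNTT, RAG2 and genes near the members) were added for their known roles or position after their values were seen. One result is not reported here.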

Additional observations from a re-analysis of the deposited data

How the results depend on the processing

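All 160 member fold changes computed under alternative settings kept their direction and their call, as did 374 of 381 for the other named genes, with 7 that no longer passed, and all 90 pair ratios kept their direction. The count of 9 lower and 1 higher members held in every setting run. The count higher by at least 1.5 in log2 was 1 with upper quartile factors. The members' median log2 fold change was -1.59 with RLE size factors, -1.59 with DESeq2, -1.47 with upper quartile factors, -1.91 with library sizes alone, -1.53 with at least 10 counts in every library, -1.75 with no filter on low counts, -1.78 with limma on FPKM + 1 at either minimum mean FPKM and -1.84 with limma on FPKM + 0.1. The median over genes of the change in a gene's own log2 fold change was 0.19 with upper quartile factors, -0.25 with library sizes alone, -0.26 with limma on FPKM + 1 and 0.13 with the filter of 10 counts in every library. Same-numbered libraries had correlations of -0.0040, 0.00097 and 0.0206 in their deviations, and only those numbered 3 were each other's closest match. Values this weak do not decide whether replicate numbers pair the samples. With the replicate block 9 members were lower and 1 higher, with a median of -1.66. Leaving out each library in turn gave a median from -1.71 to -1.62. Changes are relative to all counts, and with 3 libraries per treatment no exact test of a single ratio can pass 0.05.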
